A study of Macaca mulatta with 10 samples.

Results

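The immediate early genes examined here were FOS, FOSB, JUN, JUNB, EGR1, EGR2, NR4A1, NR4A2, ARC and DUSP1, measured in the adult brain of the rhesus monkey (Macaca mulatta), without treatment, in micro-punches taken from nuclei of the dorsal thalamus. A gene was represented by each probe set that the array's annotation gives to exactly 1 of these symbols. By this rule 9 of the 10 genes were found, with 18 probe sets, among 11963 genes and 19065 probe sets in all. JUN had 4 probe sets, NR4A1 and NR4A2 had 3 each, EGR1 and DUSP1 had 2 each, and FOS, FOSB, JUNB and ARC had 1 each. EGR2 was not analysed here. The groups were 5 nuclei with 2 arrays (replicates 1 and 2) each: Pulvinar, Centre Median, and the Anterior, Medial and Ventral Thalamus. All groups shared the same treatment history, untreated, and the same array, an Affymetrix U133A chip designed for human transcripts. The labels give neither strain nor exact age, and they do not say whether the arrays of a nucleus came from separate animals, so p-values measure only the spread between these arrays.

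Immediate early genes are transcribed within minutes of a stimulus, such as synaptic activity or a growth factor, from promoters that are already poised and without a need for new protein. Calcium and kinase signalling act on them through CREB, SRF and the ternary complex factors, and many of the products are transcription factors that change the expression of later genes. In the brain the transcripts are short-lived and widely read as a trace of recent neuronal activity, and in untreated tissue their levels also follow the state of the animal before death and the handling of the tissue.

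Values are RMA intensities as deposited, given as log2(intensity + 1), and an array's value on a probe set is compared only with other arrays on the same probe set. The scale holds no detection calls, and human probes can bind a monkey transcript weakly, so a low value is not read as absence. TCF7L2, a transcription factor of thalamic neurons, averaged 12.19 over the replicate 1 arrays and 12.82 over the replicate 2 arrays. SLC17A6, the glutamate transporter of relay cell vesicles, averaged 10.59 and 10.96. Without detection calls these levels alone do not show which cells the punches held. Each punch holds many cell types, and in such bulk samples fewer cells of a type and less RNA per cell cannot be told apart. Median intensities of the arrays were 94.17 to 100.6. The replicate 1 and replicate 2 arrays form sets that stand apart from each other on most probe sets, the lowest intensity being 11.97 to 12.3 in replicate 1 and 9.485 to 9.548 in replicate 2. Values are therefore given by replicate number, and tests without and with that number as a block.

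FOS, the founding partner of the AP-1 transcription factor, had values of 6.61 and 6.67 in Anterior Thalamus (replicates 1 and 2), 6.60 and 6.87 in Centre Median, 7.05 and 7.22 in Medial Thalamus, 6.46 and 6.61 in Pulvinar, and 6.67 and 6.78 in Ventral Thalamus. Both Medial Thalamus arrays lay above the 8 other arrays, and Pulvinar was the lowest nucleus in each replicate set. The nuclei ran from Medial Thalamus at 7.13 ± 0.118 (SD, n = 2) through Centre Median, Ventral Thalamus and Anterior Thalamus to Pulvinar at 6.54 ± 0.102 (SD, n = 2). The arrays of Medial Thalamus and Centre Median did not overlap, and those of Centre Median and Ventral Thalamus and of Anterior Thalamus and Pulvinar did. In intensity, the Medial Thalamus arrays stood at 131.66 and 147.87 and the others at 87.227 to 116.24.

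FOSB, a FOS relative whose truncated form accumulates with repeated activity, had values of 6.61 and 6.22 in Anterior Thalamus, 6.42 and 5.87 in Centre Median, 6.24 and 6.07 in Medial Thalamus, 6.39 and 5.88 in Pulvinar, and 6.32 and 5.98 in Ventral Thalamus. Anterior Thalamus was highest in each replicate set, by 0.266 and 0.267 over the mean of the others, and each replicate 2 array lay below every replicate 1 array. FOSB thus separated the replicate sets more clearly than the nuclei.

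JUN, which pairs with FOS proteins in AP-1, was read by 4 probe sets. On 201464_x_at the values were 7.75 and 7.65 in Anterior Thalamus, 7.48 and 8.02 in Centre Median, 7.67 and 8.01 in Medial Thalamus, 7.14 and 7.91 in Pulvinar, and 7.45 and 7.57 in Ventral Thalamus. On 213281_at they ran from 6.64 on the Centre Median replicate 1 array to 7.31 on the replicate 2 array of the same nucleus. The other JUN probe sets spanned 5.44 to 5.80 (201465_s_at) and 5.03 to 5.57 (201466_s_at). All 4 had their highest mean in Medial Thalamus, and the Medial Thalamus arrays lay above the mean of the other nuclei in both sets on all 4, by 0.0335 to 0.230. These 4 readings come from the same RNA of the same gene and are not independent. JUNB, a JUN relative that can restrain JUN's activity, had values of 6.61 and 7.24 in Anterior Thalamus, 6.71 and 7.12 in Centre Median, 7.18 and 7.05 in Medial Thalamus, 6.69 and 6.93 in Pulvinar, and 6.97 and 7.39 in Ventral Thalamus. The highest JUNB array was Medial Thalamus in replicate 1 and Ventral Thalamus in replicate 2.

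EGR1, a zinc-finger factor also known as zif268, was read by 2 probe sets that ordered the arrays differently. On 201694_s_at the values were 7.79 and 7.38 in Anterior Thalamus, 7.09 and 7.76 in Centre Median, 6.89 and 7.58 in Medial Thalamus, 7.10 and 7.88 in Pulvinar, and 7.61 and 7.68 in Ventral Thalamus. On 201693_s_at they were 6.85 and 6.39, 6.83 and 6.22, 6.82 and 6.36, 6.77 and 6.24, and 7.05 and 6.43 in the same order. The first probe set was higher in replicate 2 in 4 of 5 nuclei and the second was lower in replicate 2 in 5 of 5. Both had their highest mean in Ventral Thalamus, 7.64 ± 0.0509 and 6.74 ± 0.436 (SD, n = 2), and every pair of neighbouring nuclei overlapped on both.

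NR4A1, an orphan nuclear receptor (Nur77), had values of 8.65 and 8.18 in Anterior Thalamus, 8.49 and 8.04 in Centre Median, 8.70 and 8.29 in Medial Thalamus, 8.63 and 8.37 in Pulvinar, and 8.53 and 8.19 in Ventral Thalamus on 210226_at. Centre Median was lowest in each set, by 0.135 and 0.222 below the mean of the others. The other NR4A1 probe sets spanned 6.89 to 7.31 (202340_x_at) and 6.16 to 6.67 (211143_x_at). On 211143_x_at Medial Thalamus was highest and Pulvinar lowest in each set, the same extremes as for FOS.

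NR4A2, the related receptor Nurr1, was set apart by a single array. On 216248_s_at the values were 5.59 and 5.66 in Anterior Thalamus, 5.09 and 5.52 in Centre Median, 5.42 and 8.02 in Medial Thalamus, 5.62 and 5.59 in Pulvinar, and 5.50 and 5.52 in Ventral Thalamus. On 204622_x_at the Medial Thalamus replicate 2 array stood at 7.76 and the 9 others at 5.25 to 5.87, and on 204621_s_at it stood at 6.55 with the others at 4.63 to 5.32. In intensity this array read 258.22, 215.94 and 93.018 on the 3 probe sets, and the Medial Thalamus replicate 1 array read 41.712, 41.405 and 35.244. The replicate 1 array lay inside the range of the other nuclei on each.

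ARC, a synaptic protein whose mRNA travels to active dendrites, had values of 6.36 and 6.01 in Anterior Thalamus, 6.41 and 5.87 in Centre Median, 6.86 and 5.78 in Medial Thalamus, 6.49 and 5.97 in Pulvinar, and 6.34 and 5.83 in Ventral Thalamus. Medial Thalamus was thus the highest array of replicate 1 and the lowest of replicate 2, and every replicate 2 array lay below every replicate 1 array. DUSP1, a phosphatase that switches off MAP kinases, had values on 201041_s_at of 7.91 and 8.43 in Anterior Thalamus, 7.49 and 8.07 in Centre Median, 8.13 and 8.05 in Medial Thalamus, 7.97 and 8.39 in Pulvinar, and 7.86 and 8.68 in Ventral Thalamus. The second DUSP1 probe set, 201044_x_at, spanned 6.14 (Ventral Thalamus replicate 1) to 7.03 (Medial Thalamus replicate 1). As for ARC, Medial Thalamus was the highest array of replicate 1 and the lowest of replicate 2 on both DUSP1 probe sets.

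**Figure D1:**
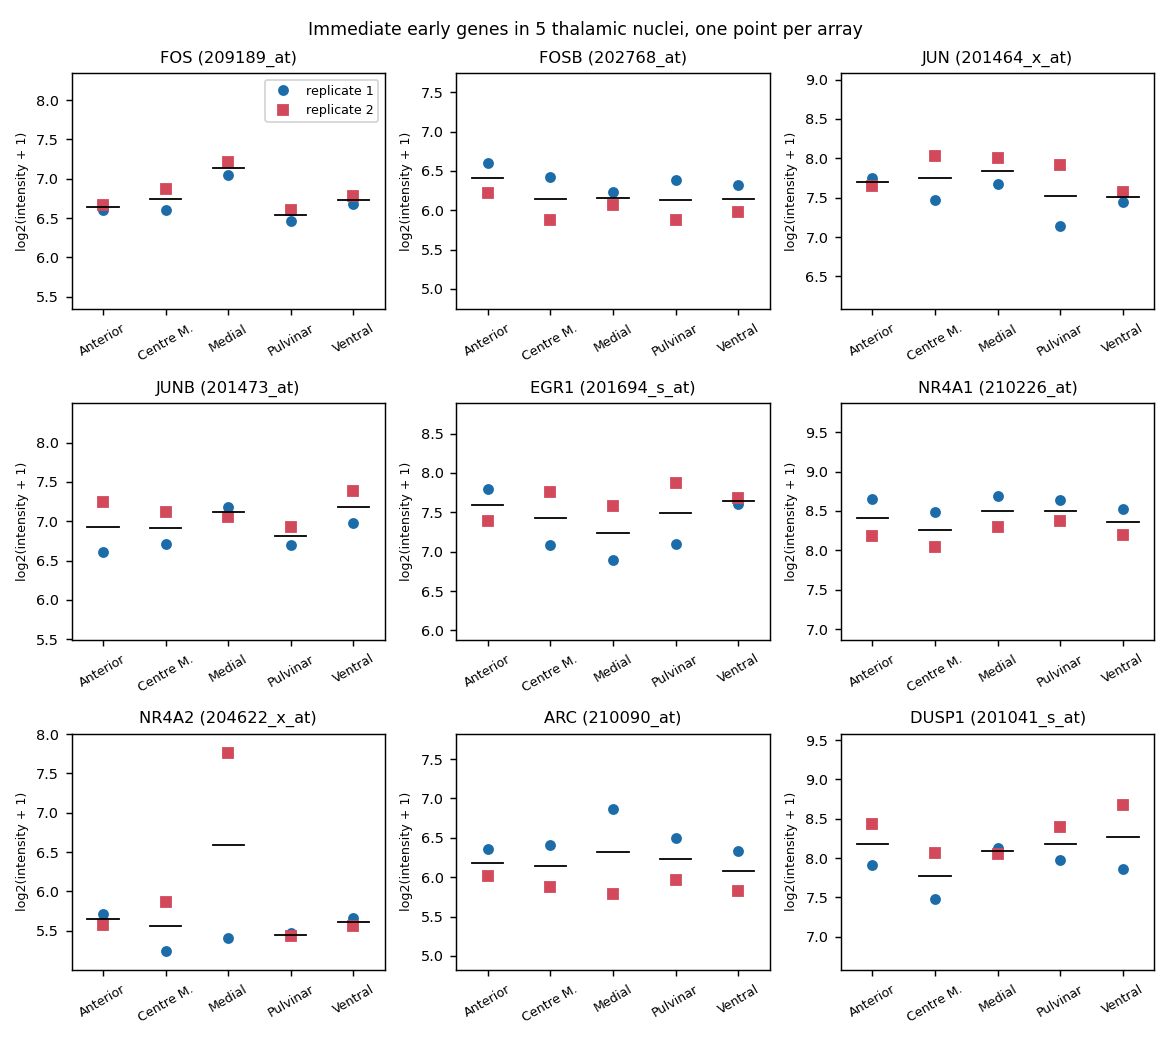
Values of 9 immediate early genes, 1 probe set each, as log2(intensity + 1) on the vertical axis and nucleus on the horizontal axis; circles are replicate 1 arrays, squares replicate 2 arrays, black bars the mean of 2 arrays, and every panel spans 3 log2 units. FOS is highest on both Medial Thalamus arrays (7.05 and 7.22), NR4A2 stands at 7.76 on the Medial Thalamus replicate 2 array alone, and ARC is lower on all 5 replicate 2 arrays.

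The design text says that nuclei were compared to find genes unique to each, and the first question is whether any member differed among the nuclei. Across all 5 nuclei, the moderated F test of limma called 0 of 18 member probe sets at an adjusted p under 0.05, both without and with the replicate block. The background was as sparse, at 0% of all probe sets without the block and 0.215% with it. At an unadjusted p under 0.05, FOS was the only member past the line in either fit (limma adjusted p = 0.189 with the block), which is 1 of 18 members against 0.619% and 8.92% of all probe sets.

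Each nucleus was then set against the mean of the other 4, and again limma called 0 of 18 members in every nucleus and both fits. Without the block the share of all probe sets called was 0.0105% in Centre Median and 0% in the other nuclei. With it the shares were 0% in Anterior Thalamus, 0.0944% in Centre Median, 0.0997% in Medial Thalamus, 0% in Pulvinar and 0.336% in Ventral Thalamus. At an unadjusted p under 0.05 without the block, 2 of 18 members passed in Medial Thalamus (FOS and NR4A2 204621_s_at) against 1.08% of all probe sets, and 0 in the other nuclei, where the background was 0.372% (Anterior Thalamus), 0.913% (Centre Median), 0.336% (Pulvinar) and 1.4% (Ventral Thalamus). With the block, 4 of 18 passed in Medial Thalamus against 9.6%, and these were FOS and the 3 NR4A2 probe sets. With the block, 1 passed in Anterior Thalamus (FOSB, 0.27 higher, background 5.63%), 1 in Centre Median (DUSP1 201041_s_at, -0.40, background 5.92%), 1 in Pulvinar (FOS, -0.27, background 3.78%) and 0 in Ventral Thalamus (background 10.7%). The member counts in nuclei other than Medial Thalamus were therefore near the background or below it.

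FOS in Medial Thalamus had the smallest p of any member. Its mean of 7.13 against 6.66 in the other nuclei is a difference of 0.48 on the log2(intensity + 1) scale, or 1.39-fold, with a 95% interval of 0.186 to 0.766 without the block and 0.272 to 0.679 with it. limma's adjusted p was 1 without the block and 0.0792 with it, so FOS did not pass in either. The difference was nearly the same in each replicate set, at 0.465 and 0.487. With the block it lay between 0.457 and 0.495 when any single array was left out, was 0.475 with the actin 3' minus 5' signal as a covariate, and was 0.452 with replicate 1 split by XIST and RPS4Y1. Among all probe sets, 0.939% had both Medial Thalamus arrays above the 8 others, and FOS was the 1 of 18 members that did.

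No member had both arrays of another nucleus above the 8 others, an arrangement held by 1.57% of all probe sets for Ventral Thalamus, 0.96% for Centre Median, 0.829% for Anterior Thalamus and 0.54% for Pulvinar. No member had both arrays of a nucleus below the 8 others either, where the background was 1.14% for Ventral Thalamus, 0.829% for Medial Thalamus, 0.698% for Centre Median, 0.498% for Anterior Thalamus and 0.404% for Pulvinar.

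Other values moved beside FOS in Medial Thalamus. The 7 measured astrocyte markers had their highest summed intensity in Medial Thalamus in both sets (8129.8 of 6012.1 to 8129.8 in replicate 1, and 13415 of 9000.5 to 13415 in replicate 2), with 6 of 7 above the other nuclei and GFAP, the astrocyte filament protein, 1.12 higher (limma adjusted p = 0.0663 with the block). The 7 microglia markers also summed highest there in both sets, but by little. They stood at 1402.2 against 1401.3 in Ventral Thalamus in replicate 1, and at 1435.9 against 1410.9 in Pulvinar in replicate 2. All 7 of 7 lay above the other nuclei, with a median difference of 0.0984. The 4 measured cortical and striatal neuron markers likewise summed highest there in both sets (828.69 and 627.94), with 4 of 4 above the other nuclei and a median of 0.103. Of 8 meningeal fibroblast markers, a list drawn up after values were seen, 7 lay above the other nuclei. COL1A2, a fibrillar collagen, stood at 7.335 and 7.466 in Medial Thalamus and at 6.248 to 6.958 elsewhere (limma adjusted p = 0.0617 with the block). The 8 relay neuron markers summed lowest in Medial Thalamus in both sets (12922 of 12922 to 18653, and 18834 of 18834 to 25986), and so did the 6 oligodendrocyte and the 4 GABAergic neuron markers, with median differences of -0.387, -0.546 and -0.739. GAD1, a GABAergic neuron marker, differed by -1.06 from the other nuclei and was called with the block (limma adjusted p = 0.0408). It did not pass without the block. The blocked F test of limma among the nuclei also called GFAP (adjusted p = 0.0466) and MAG, an oligodendrocyte marker (adjusted p = 0.0413). No marker was listed at 0, but the lowest intensity on any array was 9.485, so this does not show detection. The part of this cell-type makeup in the FOS difference was not tested. The actin 3' minus 5' signal, a sign of RNA quality, was lowest on the Medial Thalamus replicate 1 array at -0.094 (others of that set 0.338 to 1.22) and 1.34 on the replicate 2 array, inside the 1.15 to 1.64 of its set.

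NR4A2 gave the largest differences in Medial Thalamus: 1.02 on 204622_x_at (95% interval 0.265 to 1.77 with the block), 1.21 on 216248_s_at (0.412 to 2.00) and 0.83 on 204621_s_at (0.279 to 1.39). None passed, with limma adjusted p of 0.33, 0.272 and 0.274 with the block and 1 without it. With the actin 3' minus 5' signal as a covariate beside the block, the differences were 1.75, 2.03 and 1.42, and the last 2 of these passed (limma adjusted p = 0.0501, 0.0211 and 0.0206). Within replicate 2 the differences were 2.155, 2.446 and 1.671, and within replicate 1 they were -0.117, -0.0329 and -0.00517. Without the Medial Thalamus replicate 2 array the excess was thus not there, and without the replicate 1 array the blocked fit called all 3 probe sets (limma adjusted p = 0.000124, 2.83e-06 and 5.96e-05), with the lone array assumed to vary like the others.

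**Figure D2:**
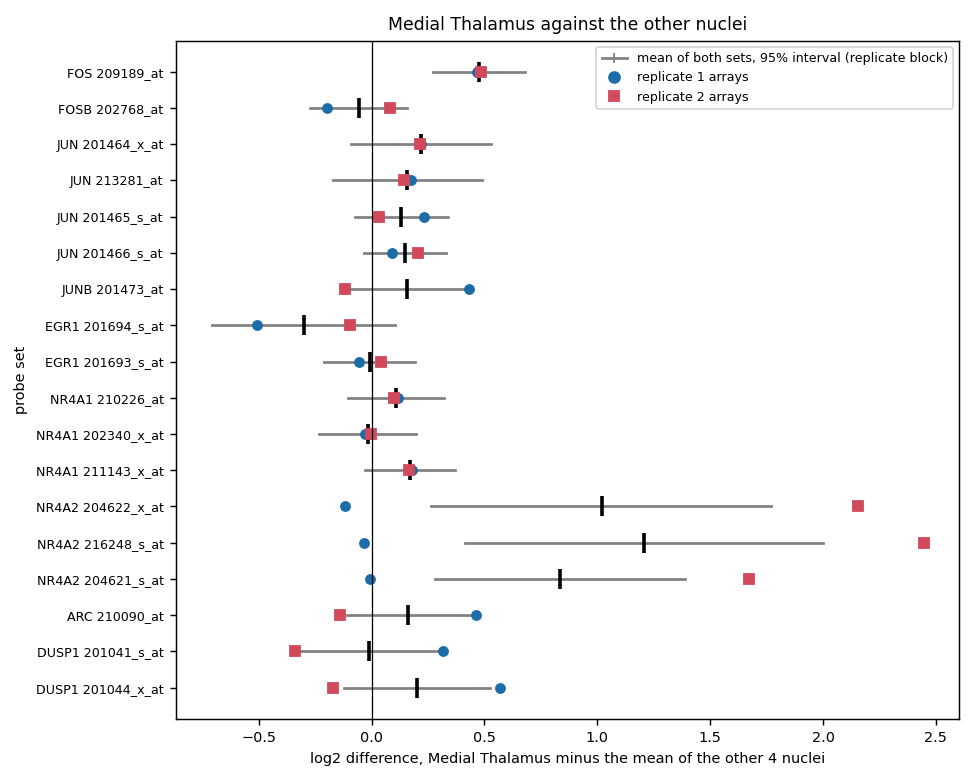
Log2 difference of Medial Thalamus from the mean of the other 4 nuclei (horizontal axis) for 18 probe sets (vertical axis); circles are replicate 1 arrays, squares replicate 2 arrays, black ticks their mean and grey lines the 95% interval of the blocked fit. The FOS points nearly coincide at 0.465 and 0.487, whereas the NR4A2 points lie near 0 in replicate 1 and at 1.671 to 2.446 in replicate 2.

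The same Medial Thalamus replicate 2 array stood apart for few other genes. It lay at least 1 log2 unit above all 9 others on 9 probe sets of 7 genes, 3 of which were the NR4A2 probe sets. The other arrays had 3 (Centre Median replicate 1), 3 (Medial Thalamus replicate 1), 2 (Ventral Thalamus replicate 2) and 0 such probe sets. The gap of 1 was chosen after the values were seen, as was the list of genes that follows. TTR, the thyroxine carrier abundant in choroid plexus, stood at 12.19 on this array and at 7.17 to 8.41 on the others. HTR2C, a serotonin receptor abundant in choroid plexus, stood at 8.83 against 4.52 to 6.13. POU4F1, a transcription factor of the medial habenula, stood at 7.36 against 5.56 to 6.28. CADPS2, a vesicle-release factor, stood at 7.85 against 5.53 to 6.03, CYP1B1, a cytochrome P450, at 7.68 against 4.23 to 6.05, and VCAM1, an adhesion molecule, at 6.995 against 5.11 to 5.88.

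Marker lists of tissues next to the medial thalamus, drawn up after these values were seen, are given for that array beside NR4A2. The 10 measured choroid plexus markers summed to an intensity of 7101.6 there and 1365.3 to 2255.2 elsewhere, with 4 of 10 highest on it. That sum rests mainly on TTR and HTR2C, named above: without both it was 1991, against 1099 to 1919.7 elsewhere. The 10 habenula markers summed to 1402.7 against 879.56 to 1298.2, with 2 of 10 highest on it, and without POU4F1 to 1239 against 829.14 to 1221.8. The 8 meningeal fibroblast markers summed to 7605.6 against 3944.3 to 5913.1, with 4 of 8 highest. No marker of these lists was at 0 on any array, which does not show detection, since no probe set read below 9.485. Their part in the NR4A2 value was not tested.

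**Figure D3:**
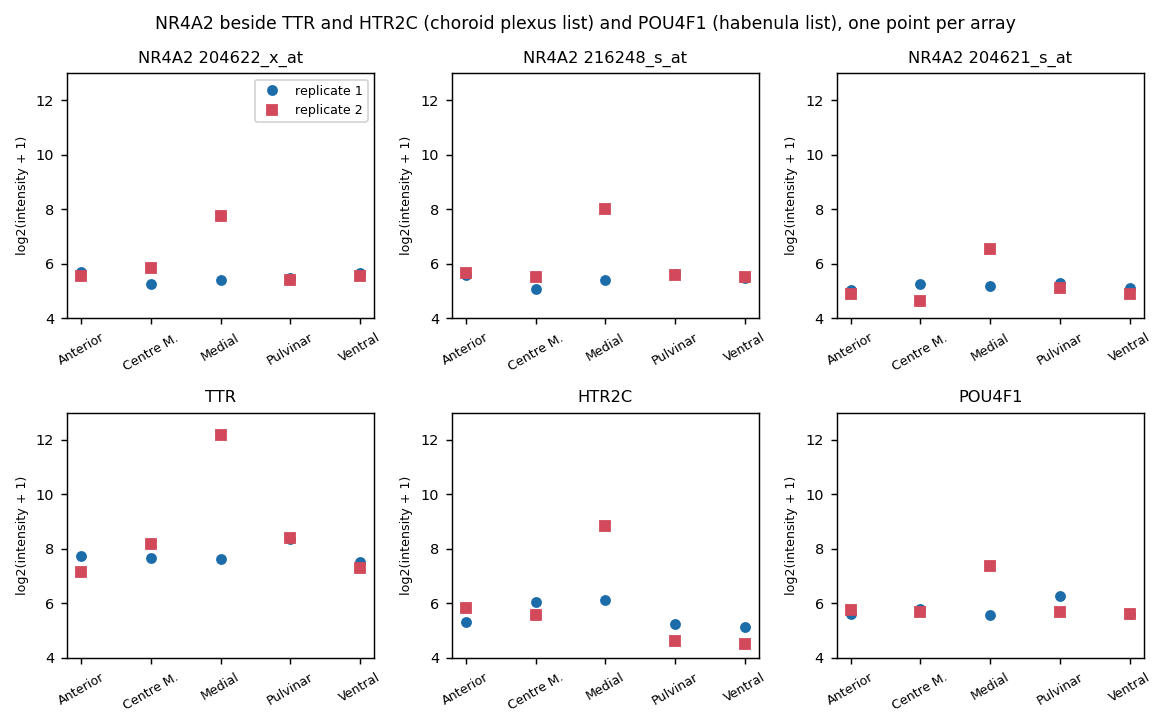
The 3 NR4A2 probe sets (top row) beside TTR, HTR2C and POU4F1 (bottom row), as log2(intensity + 1) on the vertical axis by nucleus, with circles for replicate 1 and squares for replicate 2. In all 6 panels the Medial Thalamus replicate 2 square is the highest point, at 7.76, 8.02 and 6.55 for NR4A2 and 12.19, 8.83 and 7.36 for the other genes.

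Direct comparison of the 10 pairs of nuclei gave 180 tests over the member probe sets. limma called 0 of them in either fit. At an unadjusted p under 0.05, 5 passed without the block, or 2.78% against 0.816% of the tests over all probe sets. With the block 20 passed, or 11.1% against 7.2%. All 5 were pairs of Medial Thalamus, for FOS or NR4A2 204621_s_at. Most of the 20 were pairs of Medial Thalamus for FOS or NR4A2, and those of NR4A2 rest on the Medial Thalamus replicate 2 array. Of all 19065 probe sets, 0.00525% were called in at least 1 pair without the block and 0.86% with it. The smallest adjusted p, 0.11 with the block, belonged to FOS in Medial Thalamus against Pulvinar, a difference of 0.60 (SE 0.119).

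The order of nuclei was mostly not shared by the replicate sets. The same nucleus was highest in both sets for 5 of 18 member probe sets (27.8%, against 23.8% of all probe sets) and lowest in both for 4 of 18 (22.2%, against 21.2%). Of 72 neighbouring pairs in the members' orders, 4 had arrays that did not overlap (5.56%, against 6.36% over all probe sets), 2 of them for FOS and 1 each for NR4A2 216248_s_at and DUSP1 201044_x_at. After each set's mean was subtracted, 14 of 72 did not overlap (19.4%, against 18.3%). By this count the members' orders were no clearer than those of other probe sets. Medial Thalamus was the highest array of replicate 1 for 10 of 18 member probe sets, against 25.4% of all probe sets, and of replicate 2 for 6 of 18, against 19.1%. The replicate 2 count includes every NR4A2 probe set. In both counts several probe sets read the same gene and are not independent. On the Medial Thalamus replicate 1 array ARC was 0.465 above the mean of the other nuclei, JUNB 0.431, and DUSP1 0.319 (201041_s_at) and 0.571 (201044_x_at), whereas in replicate 2 the same differences were -0.138, -0.119, -0.341 and -0.171. Medial Thalamus lay above the others in both sets for 7 of 18 (24.2% of all probe sets), below in both for 2 (26.6%) and in opposite directions for 9. Those 7 were probe sets of FOS, JUN and NR4A1 only. Members below the others in both sets numbered 9 of 18 in Centre Median (26.8% of all probe sets), 8 in Ventral Thalamus (32.2%), 7 in Pulvinar (24%) and 2 in Anterior Thalamus (24.4%). These counts are raised by NR4A2. In replicate 2 its high Medial Thalamus value enters the mean of the others, so each other nucleus lay below on every NR4A2 probe set. Centre Median counted as below there on 204622_x_at (-0.213), although at 5.87 only Medial Thalamus was higher in that set.

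The replicate sets differed on most of the array, and the members shared in this. limma called 10 of 18 member probe sets between replicate 2 and replicate 1 (55.6%, against 54% of all probe sets), 4 higher in replicate 2 (22.2%, against 24.1%) and 6 lower (33.3%, against 29.9%). The members were thus called about as often as other probe sets. The 5 arrays of each set did not overlap for 5 of 18 members, against 38.2% of all probe sets, and all 5 nuclei differed the same way for 8 of 18, against 54.8%. The labels do not say whether the number marks an animal, a batch or a separate normalisation, and which of these applies was not tested. XIST, transcribed from the inactive X chromosome of females, read below the Y-linked RPS4Y1 on 3 of the replicate 1 arrays (Anterior, Medial and Ventral Thalamus). It read above RPS4Y1 on the other 7 arrays. XIST minus RPS4Y1 was -2.07 to 2.37 in replicate 1 and 2.71 to 3.38 in replicate 2. The replicate 1 arrays thus do not all read as the same sex, and the sets also differ in this reading. The actin 3' minus 5' signal, a sign of RNA quality, was -0.094 to 1.22 in replicate 1 and 1.15 to 1.64 in replicate 2. For GAPDH the same signal was 0.237 to 0.839 and 0.622 to 0.804. The part of RNA quality in the replicate differences was not tested.

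The effector ARC had the largest called decrease, from 6.49 ± 0.216 in replicate 1 to 5.89 ± 0.0949 in replicate 2 (SD, n = 5), or 1.52-fold lower in 5 of 5 nuclei. Its difference was -0.60 (SE 0.1, limma adjusted p = 0.00035). FOSB was lower by 0.39 in 5 of 5 nuclei (limma adjusted p = 0.00147), and NR4A1 was lower on all 3 probe sets, by 0.39, 0.22 and 0.25 (limma adjusted p = 0.00142, 0.0303 and 0.0128), in 5 of 5 nuclei each. JUNB was 0.31 higher in 4 of 5 nuclei (limma adjusted p = 0.0209). Without either Anterior Thalamus array, either Centre Median array or either Ventral Thalamus array JUNB did not pass (adjusted p up to 0.0892). FOS was 0.15 higher in 5 of 5 nuclei and did not pass (limma adjusted p = 0.11); it did with each array centred on its median (0.201, adjusted p = 0.0377) and after quantile normalisation (0.196, adjusted p = 0.0435).

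Probe sets of a gene disagreed on the replicate difference for JUN, EGR1 and DUSP1. JUN was higher in replicate 2 on 201464_x_at (0.34, limma adjusted p = 0.0255) and 201466_s_at (0.27, adjusted p = 0.0046) and did not pass on 213281_at (0.14, adjusted p = 0.354) or 201465_s_at (-0.04, adjusted p = 0.715). The call on 201464_x_at was lost without either Centre Median or either Pulvinar array (adjusted p up to 0.121) and after quantile normalisation (0.0609). EGR1 was lower on 201693_s_at (-0.54, limma adjusted p = 9.41e-05) and did not pass on 201694_s_at, where the difference was 0.36 (adjusted p = 0.0591); it passed there with median centring (adjusted p = 0.0408) and without either Anterior Thalamus array (0.551, adjusted p up to 0.00336). DUSP1 was higher on 201041_s_at (0.45, limma adjusted p = 0.0047), and 201044_x_at gave -0.25 (adjusted p = 0.0913). No single direction of the replicate difference can therefore be given for EGR1 or DUSP1. The 3 NR4A2 probe sets gave 0.54, 0.62 and 0.03 and did not pass (limma adjusted p = 0.119, 0.0913 and 0.896).

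**Figure D4:**
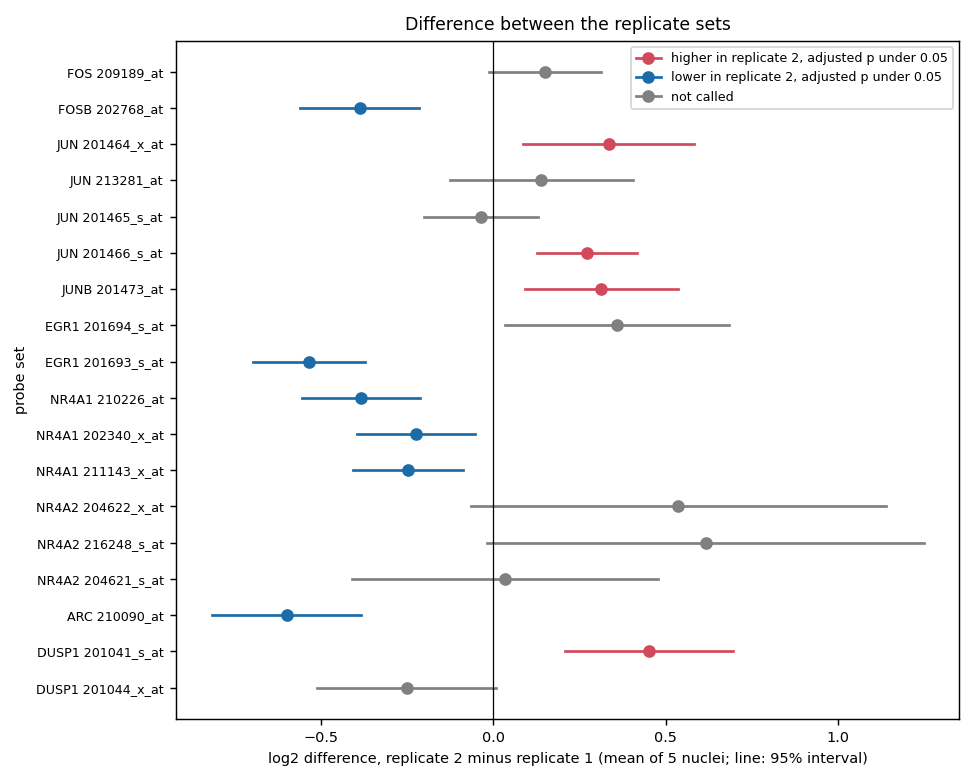
Log2 difference of replicate 2 minus replicate 1, averaged over 5 nuclei (horizontal axis), for 18 probe sets (vertical axis); points are estimates, lines 95% intervals, red called higher, blue called lower and grey not called at an adjusted p of 0.05. ARC (-0.60) and EGR1 201693_s_at (-0.54) lie farthest to the left, and DUSP1 201041_s_at (0.45) is the called probe set farthest to the right.

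Other genes of the response were described with 1 probe set per gene, on which 25.1% of all 11963 genes were called higher in replicate 2 and 30.6% lower. By this measure 3 of 9 members were higher (JUN, JUNB, DUSP1) and 3 lower (FOSB, NR4A1, ARC), with a median difference of 0.314 against -0.0516 over all genes. Over all 18 member probe sets the median was 0.0865, against -0.0529 over all probe sets, so the larger value depends on the probe sets chosen for EGR1 and DUSP1, among others. Of 7 other AP-1 and partner factors, 1 was higher (ATF2, a CREB relative that pairs with JUN, by 2.34) and 1 lower (FOSL1, a FOS relative, by 0.64). FOSL2 and JUND, further AP-1 proteins, differed by -0.08 and -0.04 and did not pass. Of the 5 remaining EGR and NR4A genes and co-repressors, EGR3 (0.20), NAB1 (0.27) and NAB2 (0.29), the last a pair of EGR co-repressors, were higher, and EGR4 (-0.41) and NR4A3 (-0.40) lower.

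Of 32 other rapidly induced transcripts, 12 were higher and 10 lower in replicate 2. HOMER1, a postsynaptic scaffold, was 2.43 higher, BHLHE40, a transcriptional repressor, 1.08, and SGK1, a kinase induced by glucocorticoids, 0.73. BDNF, a neurotrophin, was lower by 0.86 and NPTX2, a synaptic pentraxin, by 0.47. Of 10 other dual-specificity phosphatases, 3 were higher (DUSP6 by 0.81, DUSP7 by 0.66, DUSP10 by 0.34) and 2 lower (DUSP4 by 0.31, DUSP2 by 0.26). Among 28 genes that signal to immediate early promoters, 10 were higher and 8 lower: the co-activator EP300 differed by 1.49, the transcription factor CREB1 by 0.83, the NMDA receptor subunits GRIN1 and GRIN2B by -0.86 and -0.59, and the kinase MAPK8 by -0.72. Of 11 heat shock transcripts, 5 were higher and 1 lower, HSPE1 (0.79), a mitochondrial chaperonin, having the largest difference.

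Among the nuclei, the blocked F test of limma called 0 of 9 members on 1 probe set per gene (1 at an unadjusted p under 0.05, FOS), against 0.267% of all genes. Of the lists of the response, the rapidly induced transcripts alone held a called gene, NPTX2 (adjusted p = 0.0106), and without the block no listed gene was called. In Medial Thalamus against the other nuclei, 6 of 9 members lay above 0 with a median of 0.156, beside 5962 of 11963 genes and a median of -0.000476. Above 0 were also 5 of 7 other AP-1 and partner factors (median 0.123), 3 of 5 EGR and NR4A relatives and co-repressors (0.0255), 19 of 32 rapidly induced transcripts (0.0374), 3 of 10 dual-specificity phosphatases (-0.114), 9 of 28 signalling genes (-0.0819) and 3 of 11 heat shock transcripts (-0.107).

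Genes whose pattern among the arrays was most like the members' were ranked by Pearson's r over the 10 arrays after each replicate set's mean was subtracted, among 9128 genes with a mean of at least 6. These are the highest values of a large number and are descriptive. For the mean of the 9 members they were SLC16A10 (0.951), LRP8 (0.925), KLHL28 (0.924), CEACAM6 (0.922), NFATC2IP (0.921), CD2 (0.92), TSPAN13 (0.908), CYREN (0.907), ZNF764 (0.902) and FRMD8 (0.892). That mean includes NR4A2 and its high value on the Medial Thalamus replicate 2 array. It was 7.312 on that array and 7.04 to 7.073 on the others of replicate 2. A ranking without NR4A2 was not made, so these genes need not resemble the members as a group. For FOS they were FGGY (0.974), PLCD1 (0.934), CDO1 (0.92), GSTM5 (0.916) and POPDC3 (0.916). For EGR1 on 201694_s_at they were RPL39 (0.945), SOX5 (0.94), TASOR (0.915), MAP2K5 (0.906) and KPNA2 (0.878). For NR4A2 they were CADPS2 (0.974), YAP1 (0.968), SERPIND1 (0.959), GLT8D2 (0.956) and SLIT2 (0.928), values that rest largely on the Medial Thalamus replicate 2 array.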

How the data were processed

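Biotin-labelled total RNA was hybridised to 10 arrays, per the labels' protocols. The authors deposited intensity values made with RMA, as the submitters' processing notes name it (version not stated); build and annotation release are not given in the sources used here. Of 22283 probe sets, 68 controls, 1043 with several symbols and 2107 with none were left out. Values were taken as log2(value + 1), with no filter, and fitted over 19065 probe sets with limma 3.58.1 in R 4.3.3 (lmFit, eBayes with a variance trend), adjusted by Benjamini-Hochberg over all of them and called under 0.05. The script was tested on simulated data. Residual degrees of freedom were 5 without a block and 4 with replicate number as the block. Replicate 2 minus replicate 1 correlated between nuclei at 0.752 to 0.828 (10 correlations), so the replicate number was used as a block. A shift common to a set gives such correlations however its arrays are matched. They therefore do not show that arrays of the same number are paired in any other way. The members and lists were chosen with earlier results of these data known; choroid plexus, habenula and meningeal lists were added after values were seen. All members were named; list genes were named among the 5 with the smallest blocked F p and the 5 with the largest replicate difference. A gene's single value is its probe set with the highest mean. Alternatives were the block, the actin signal as a covariate, the XIST and RPS4Y1 split, pseudocounts of 0 and 16, normalisation, a mean filter, probe set choice, no trend and each array left out. The number of arrays limits precision. Figures used Python 3.11.15 and matplotlib 3.10.9.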

Additional observations from a re-analysis of the deposited data

Results flagged for a closer look

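Within replicate 2, the Medial Thalamus array was far from the other 4 nuclei on all 3 NR4A2 probe sets. Its gap to the nearest other array, as a share of the range of the 5 arrays, was 0.812 on 204622_x_at, 0.945 on 216248_s_at and 0.756 on 204621_s_at, beyond Dixon's critical value of 0.71 for 5 samples. Chance flags about 1 in 20 groups, the 3 probe sets read the same gene in the same RNA, and 5.65% of all probe sets went beyond this value in replicate 2. In replicate 1, 0 of 18 member probe sets went beyond it, against 6.77% of all probe sets.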

How the results depend on the processing

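With the replicate block, the member count was 0 among nuclei, 0 in each nucleus against the others and 0 between pairs, as without it, and the block changed no member call. Pseudocounts of 0 and 16, quantile normalisation, median centring, the filter at a mean of 6, 1 probe set per gene, no variance trend and the XIST and RPS4Y1 split also left these counts at 0. Calls among nuclei that appeared under other settings were all NR4A2, apart from DUSP1 201044_x_at in 1 pair. With the block and the actin covariate, 2 probe sets were called in Medial Thalamus and 2 between pairs. When each array was left out without the block, the count in Medial Thalamus was 0 to 1 and that between pairs 0 to 1. With the block and each array left out, the counts were 0 to 3 among nuclei, 0 to 1 in Centre Median, 0 to 3 in Medial Thalamus, 0 to 1 in Ventral Thalamus and 0 to 12 between pairs; the upper values came without the Medial Thalamus replicate 1 array. Without the Medial Thalamus replicate 2 array and with the block, 1 pair was called (DUSP1 201044_x_at, Medial Thalamus against Ventral Thalamus). NR4A2 in Medial Thalamus ranged from -0.158 to 2.20 on 204622_x_at and from -0.0944 to 2.51 on 216248_s_at over arrays left out without the block. With the block it ranged from -0.117 to 2.16, from -0.0329 to 2.45 and, on 204621_s_at, from -0.00517 to 1.67. The count between the replicate sets was 7 to 11 when each array was left out, and 6 of 9 with 1 probe set per gene, fewer features by construction. The replicate difference turned with the probe set for JUN (-0.0354 on 201465_s_at), EGR1 (-0.535 on 201693_s_at) and DUSP1 (-0.252 on 201044_x_at); the cause was not tested. With 2 arrays a nucleus, differences of the size seen for most members lie inside the intervals, and a missed threshold does not show that nuclei are alike.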

Other observations

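BDNF, a neurotrophin gene induced by activity, stood at 7.29 on the Medial Thalamus replicate 1 array and at 7.03 on the Anterior Thalamus replicate 1 array. ARC (6.86) and DUSP1 201044_x_at (7.03) were also at their highest on the Medial Thalamus replicate 1 array. So were NR4A1 on 210226_at (8.695) and 211143_x_at (6.67) and JUN on 201465_s_at (5.80), by small margins. Not every member was: EGR1 201694_s_at had its lowest value of all arrays there (6.89), and FOSB its lowest of replicate 1 (6.24). DUSP1 201041_s_at was highest on the Ventral Thalamus replicate 2 array (8.68). NPTXR, a pentraxin receptor of synapses, stood at 9.21 on the Medial Thalamus replicate 1 array and at 6.15 to 7.52 on the 9 others. BDNF and NPTXR were picked after their values were seen. The summed intensity of the 9 members was highest in Medial Thalamus in both replicate sets, at 1519 and 1638.9, but in replicate 2 only through NR4A2. Without NR4A2 Medial Thalamus stood at 1477.6, still highest, in replicate 1 and at 1423 in replicate 2, below Ventral Thalamus (1486.2) and Pulvinar (1474.3).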
